A study of Homo sapiens with 6 samples.

Results

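The genes described here are 50 genes named for nucleolar ribosome biogenesis, taken from the count table by their symbols and compared between knockdown and control libraries. All 50 were found among the 36517 genes of the table, and all 50 passed the filter on low counts, as did 19628 genes in all. The cells were MDA-MB-453, a human breast cancer line that expresses the androgen receptor and ERBB2, and mRNA was sequenced at day 3. Control cells carried a lentiviral negative-control hairpin (control, n = 3), and the others a lentiviral hairpin against tRF-1-Ser, a small RNA cut from the 3′ end of a serine tRNA precursor (shtRF, n = 3). Both groups had therefore been transduced, and both stem from 1 cell line. The study's methods call its mRNA-seq replicates biological, but do not say whether the 3 libraries of a group came from separate transductions, so the p-values measure only the spread between these libraries. The study checked its knockdown by qPCR. The hairpin's target is too small to be seen in mRNA libraries, so the level of tRF-1-Ser was not analysed here.

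Ribosomes are assembled in the nucleolus, where RNA polymerase I makes a long precursor rRNA that is modified, cut and folded around ribosomal proteins. Small nucleolar ribonucleoproteins (snoRNPs) guide the modification, a large particle called the small subunit processome builds the 40S subunit, and a separate line of factors builds the 60S subunit. Genes for these factors are textbook targets of the transcription factor MYC, which binds the E-box CACGTG together with MAX. The question here was whether a lower MYC mRNA in shtRF cells went with lower mRNA of these nucleolar genes. By known function the list holds 3 proteins of box C/D snoRNPs, 4 of box H/ACA snoRNPs, 5 abundant nucleolar proteins or regulators of rRNA synthesis, 13 factors of the small subunit processome, 4 of late 40S assembly, the 3 subunits of the PeBoW complex and 17 of 60S assembly. The remaining gene, POLDIP2, encodes a partner of DNA polymerase delta and is not known as a ribosome assembly factor. It was kept because the list names it.

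The libraries held between 63541413 and 78917459 counts. The least abundant of the 50 genes still had 115 counts in its poorest library, and the median of the 50 genes was 5069 counts. The 10 marker genes of the line ranged from 18.5 to 2429 RPKM (counts scaled for exonic length and library total). Of 10 markers of immune, endothelial and stromal cells, 8 were too low to test, none was at 0 in every library, and all but COL1A1 had at most 16 counts in any library (PTPRC 5, CD3E 2 and PECAM1 10). COL1A1 reached 2416 counts, and the summed level of the 10 was 30.4 to 36.4 CPM (counts relative to the library total, here without TMM scaling) in control and 20.4 to 21.7 in shtRF. Their part in the results was not tested. Levels below are CPM scaled with TMM factors, so each is a share of the mRNA of a library, and a change in the total RNA per cell would not be seen. In such bulk libraries fewer cells of a kind and less RNA per cell cannot be told apart.

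Control replicate 3 stood apart for these genes. It had the highest level of the 3 control libraries for 41 of the 50 genes, or 82.0%, against 33.9% of all tested genes. Over the 50 genes its log2 CPM lay a median of 0.16 above the mean of the other control libraries, whereas over all tested genes the median was -0.0032. Among the shtRF libraries, replicate 2 was highest for 31 genes and replicate 1 lowest for 28. These shifts inside a group are of the same order as many of the differences between groups, and the counts for the 50 genes and their larger groups are therefore also given without control replicate 3.

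MYC itself was measured at 20.8, 21.8 and 20.5 CPM in the control libraries and at 7.76, 7.18 and 7.72 CPM in the shtRF libraries. The groups were far apart, and the log2 fold change was -1.48 ± 0.08 (SE; 95% interval -1.64 to -1.31; edgeR adjusted p = 2.51e-12). Against that, the 50 genes moved little and in both directions. By edgeR's quasi-likelihood test 22 of the 50 (44.0%) passed an adjusted p of 0.05 as lower in shtRF cells, 9 (18.0%) as higher and 19 did not pass. Over all tested genes 18.9% were lower and 20.6% were higher. The share of lower genes lay above that background, which was not matched for count level, and the share of higher genes near it. Regardless of sign, the median size of the log2 fold change was 0.21 for the 50 genes and 0.26 for all tested genes. The median log2 fold change was -0.13, a level 0.914 times that of control, where all tested genes had a median of -0.0025. Without control replicate 3 the counts were 16 lower and 12 higher and the median was -0.09. Without shtRF replicate 3 they were 15 and 7, with a median of -0.10. In these fits the median of all tested genes was -0.0037 and -0.0038. Here and below, shares over all tested genes come from the fit with all 6 libraries. They are not given for fits without a library, in which the number of called genes can differ.

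No member fell as far as MYC. The 50 log2 fold changes ran from -0.45 for NOP16 to 0.49 for DDX10, and the 95% interval of each of the 50 lay above that of MYC. Each interval also excluded a halving and a doubling, which for a halving held for 16595 of the 19628 tested genes. The lowest bound was that of NOP10, at -0.77, and the highest that of DDX10, at 0.62. Like MYC, 22 of the 50 genes (44.0%) were called lower, against 18.9% of all tested genes, and none matched MYC in size. By sign alone, 35 of the 50 estimates were negative, as were 9885 of the 19628 over all tested genes.

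**Figure D1:**
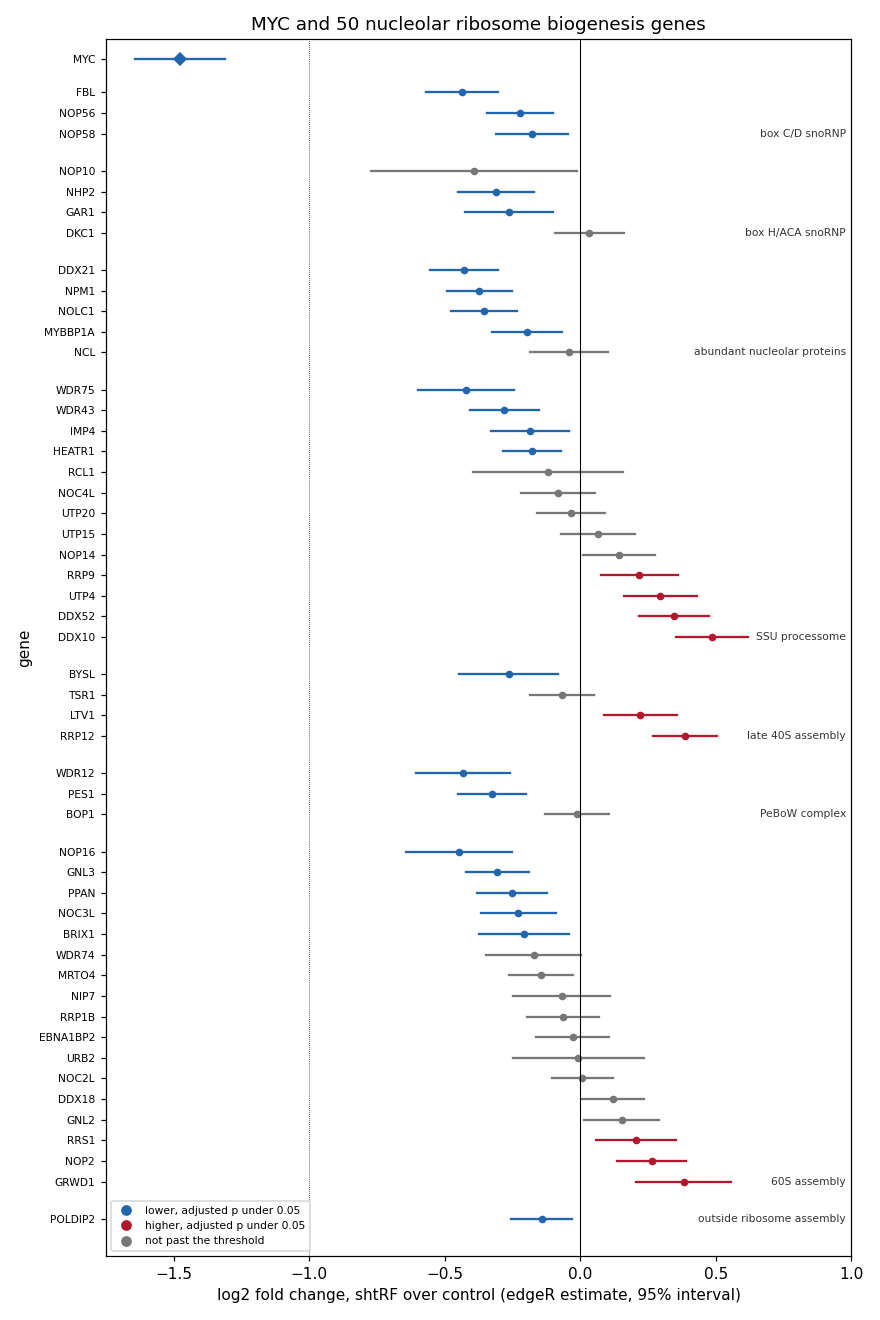
Log2 fold change of MYC and of the 50 genes in shtRF against control, one row per gene grouped by role, with the edgeR estimate as a point and its 95% interval as a line (3 libraries per group). Blue marks genes that were lower and red genes that were higher with an adjusted p under 0.05, grey marks genes that did not pass, and the dotted line is a halving. MYC lies at -1.48 and the 50 genes lie between -0.45 and 0.49.

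All 3 shtRF libraries lay below all 3 control libraries for 21 of the 50 genes, and above them for 7. Over all tested genes those shares were 23.8% and 24.9%. Of the 22 genes called lower, 13 were called in each of the fits that left out 1 library, as were 6 of the 9 called higher. DDX21, FBL, GNL3, NHP2, NOLC1, NOP16, NOP56, NPM1, PES1, PPAN, WDR12, WDR43 and WDR75 were the 13. DDX10, DDX52, GRWD1, NOP2, RRP12 and UTP4 were the 6. The share of all tested genes that kept a call in each of these fits is not given here.

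**Figure D2:**
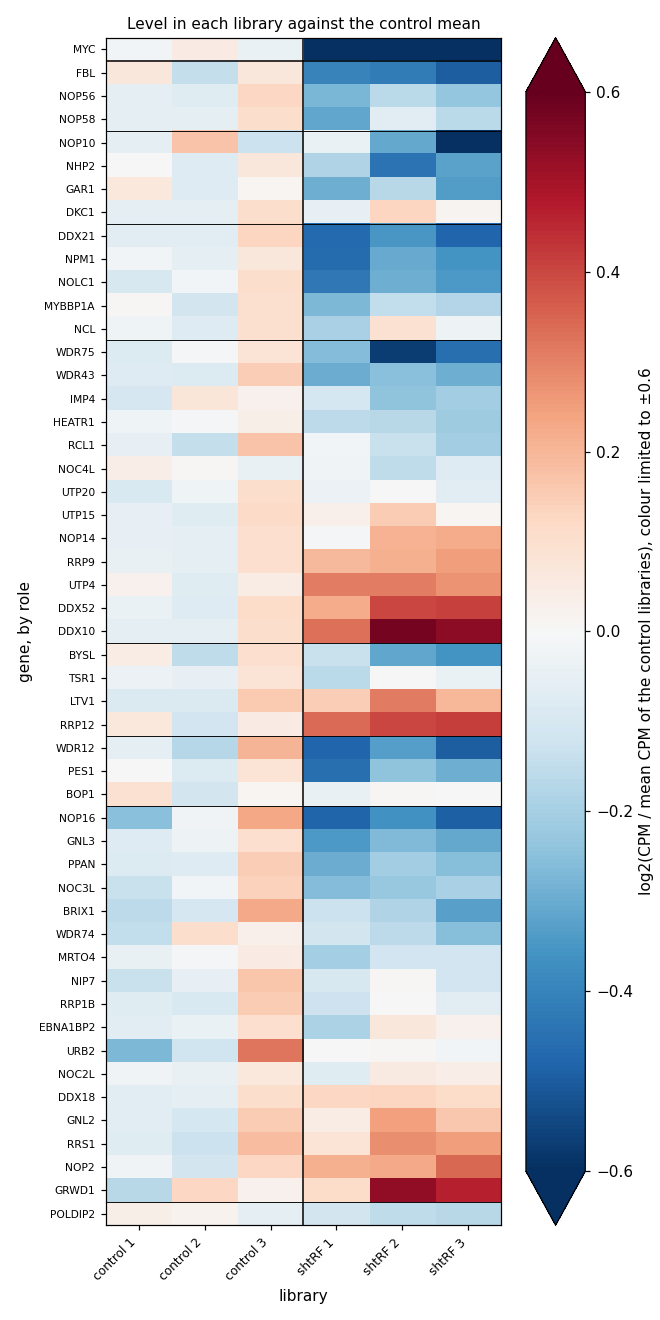
Level of MYC and of the 50 genes in each of the 6 libraries, as log2 of the CPM over the mean CPM of the control libraries. Rows are genes by role, columns are libraries, blue is below and red above the control mean, and the colour scale stops at 0.6 in either direction. Control 3 is redder than the other controls in 41 of the 50 genes, and the shtRF columns hold blue and red rows side by side.

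The sequences upstream of these genes were searched for the palindromic E-box CACGTG, which reads the same on both strands. RefSeq promoter windows (GRCh38.p14, 250 bases before to 50 after each start) were matched for 41 of the 50 genes, and 21 of those 41 (51.2%) held the motif. It was present for 8.78% of the 27305 genes with a window and for 12.4% of the 10853 tested genes with one. In all 21 it lay within 50 bases of a start, which held for 39.98% of all genes with the motif. The motif was found in 10 of the 20 lower genes with a window, in 4 of the 6 higher ones and in 7 of the 15 that did not pass. Of the 21 genes with the motif, 10 were lower and 4 higher, where 18.9% and 20.6% of all tested genes were. The higher count lay near that background. Without control replicate 3, 6 of the 21 were lower and 6 higher. The 4 higher ones became 2 without control replicate 1 or without control replicate 2. The motif was thus present among lower and higher genes alike, and the median log2 fold change was -0.19 with it and -0.16 without it. Whether it goes with direction was not tested, and few higher genes had a window. A match is a string of letters, not evidence of binding.

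The E-boxes are shown for the 4 largest falls among the 10 lower genes with the motif and for all 4 higher ones. They are given as 30 bases 5′ to 3′ on the gene's strand, from RefSeq GRCh38.p14 windows and with the motif in capitals. FBL (chr19:39846356-39846385, minus strand), DDX21 (chr10:68956604-68956633, plus), PES1 (chr22:30591880-30591909, minus) and GNL3 (chr3:52686026-52686055, plus) fell. UTP4 (chr16:69132621-69132650, plus), NOP2 (chr12:6568242-6568271, minus), LTV1 (chr6:143843354-143843383, plus) and RRP9 (chr3:51941892-51941921, minus) rose. The calls for LTV1 and RRP9 were lost in some of the fits that left out 1 library, as given below.
FBL: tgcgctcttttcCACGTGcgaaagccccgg
DDX21: ggccgggtgtccCACGTGgtccccggcgac
PES1: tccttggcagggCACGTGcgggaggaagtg
GNL3: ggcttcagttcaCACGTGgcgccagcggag
UTP4: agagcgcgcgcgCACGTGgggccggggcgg
NOP2: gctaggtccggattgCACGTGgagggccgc
LTV1: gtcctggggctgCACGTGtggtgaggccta
RRP9: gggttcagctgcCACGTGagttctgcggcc

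The motif began 6 bases past the start for FBL and GNL3, 13 past it for PES1, 28 past it for LTV1 and 35 past it for NOP2, and 31, 16 and 5 bases before it for DDX21, UTP4 and RRP9. Genes with an E-box close to the start were therefore found on both sides of the comparison.

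Box C/D snoRNPs place 2′-O-methyl groups on rRNA. All 3 of their core genes on the list fell, where 18.9% of all tested genes were lower. FBL (chr19:39834458-39846414, GRCh38), which encodes the methyltransferase fibrillarin, was at 50.3, 43.5 and 50.4 CPM in control and at 36.4, 36.0 and 34.1 CPM in shtRF. Every shtRF library was below every control library, and the log2 fold change was -0.44 ± 0.06 (SE; edgeR adjusted p = 1.00e-05), a fall to 26.1% below control. NOP58, a scaffold of the same particle and the most abundant of the 3 per kilobase at 64.0 RPKM, was at 216, 215 and 241 CPM and then at 180, 214 and 200. Its groups touch closely, and its change of -0.18 ± 0.06 (adjusted p = 0.0298) was lost without control replicate 3, shtRF replicate 1 or shtRF replicate 3, with adjusted p-values of 0.145, 0.147 and 0.0793. NOP56, its paralogue, had a mean of 202 ± 15.7 CPM in control and 173 ± 6.86 in shtRF (SD, n = 3), a log2 fold change of -0.22.

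Box H/ACA snoRNPs turn uridine of rRNA into pseudouridine, and their genes did not move together. DKC1 (chromosome X, 154762742 to 154777689), the pseudouridine synthase dyskerin and by far the most abundant of the 4 at 239 RPKM, was at 953, 959 and 1071 CPM in control and at 962, 1086 and 1005 CPM in shtRF. The groups overlapped, and the log2 fold change of 0.03 ± 0.06 (95% interval -0.09 to 0.16; adjusted p = 0.702) did not pass. Its partners NHP2 and GAR1 fell by 0.31 and 0.26, to 33.6 ± 3.07 from 41.7 ± 2.08 CPM and to 14.1 ± 0.859 from 17.0 ± 0.806 CPM. GAR1 was no longer called without shtRF replicate 3 (adjusted p = 0.0629). Exons of RMND5B, on the opposite strand, cover 27.4% of NHP2, and RMND5B was at -0.20. NOP10, the smallest of the 4, was the least precise of the 50 genes. It was at 3.60, 4.21 and 3.42 CPM in control and at 3.64, 3.03 and 1.85 in shtRF, and its estimate of -0.39 ± 0.18 did not pass (adjusted p = 0.0972), although it did without shtRF replicate 1 (-0.62, adjusted p = 0.0189).

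The abundant nucleolar proteins split in the same way. Of the 5 genes, 4 were lower (80.0%, against 18.9% of all tested genes), and the most abundant was not past the threshold. NCL (chr2:231453531-231483641), which encodes nucleolin, had the highest level per kilobase of the 50 genes at 678 RPKM. Its libraries read 4682, 4523 and 5106 CPM in control and 4163, 5077 and 4670 CPM in shtRF, so the groups overlapped and the log2 fold change was -0.04 ± 0.07 (95% interval -0.18 to 0.10; adjusted p = 0.682). NPM1 (chr5:171387116-171411137), the chaperone nucleophosmin, was next at 454 RPKM and fell.

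NPM1 was at 1933, 1884 and 2053 CPM in control and at 1423, 1586 and 1526 in shtRF, and its log2 fold change was -0.37 ± 0.06 (adjusted p = 2.26e-05). The table also lists 32 NPM1 pseudogenes, but their counts came to only 0.916% of those of NPM1. NOLC1, a chaperone of snoRNPs, was at 385, 406 and 443 CPM and then at 306, 336 and 324. DDX21, an RNA helicase that senses polymerase I activity, went from 307, 307 and 352 CPM to 233, 253 and 232. No library of one group overlapped the other group for these genes, and the log2 fold changes were -0.35 ± 0.06 (adjusted p = 4.87e-05) for NOLC1 and -0.43 ± 0.06 (adjusted p = 5.68e-06) for DDX21. MYBBP1A, a repressor of polymerase I and of MYB, fell by 0.20, a call that was lost without control replicate 3 (adjusted p = 0.0759) or shtRF replicate 1 (0.0742).

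The small subunit processome showed no common direction. Of its 13 genes 4 fell, 4 rose and 5 did not pass (30.8% in either direction, against 18.9% lower and 20.6% higher of all tested genes), with a median of -0.03. Without control replicate 3 the counts were 3 lower and 5 higher, and without shtRF replicate 3 they were 2 lower and 3 higher. The 2 largest changes of the group were opposite in sign. WDR75, a subunit of the UTP-A complex that binds the precursor first, was at 17.2, 18.2 and 19.3 CPM in control and at 15.2, 12.3 and 13.3 in shtRF, and its log2 fold change was -0.42 ± 0.08 (adjusted p = 3.72e-04). DDX10 (chr11:108665025-108940930), a helicase that releases a snoRNA from the precursor, was at 119, 119 and 133 CPM in control and at 155, 184 and 179 in shtRF. All 3 shtRF libraries were higher, and the change of 0.49 ± 0.06 (adjusted p = 2.55e-06) was the largest rise of the 50 genes.

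Subunits of a single complex also differed. UTP4, which belongs to the UTP-A complex with WDR75, WDR43, UTP15 and HEATR1, was at 23.6, 22.0 and 23.9 CPM in control and at 28.6, 28.7 and 28.0 in shtRF, and rose by 0.30 ± 0.06 (adjusted p = 7.94e-04). WDR43 and HEATR1 fell by 0.28 and 0.18, and UTP15 was at 0.07 (adjusted p = 0.468). HEATR1 was no longer called without shtRF replicate 3 (adjusted p = 0.0582), and LGALS8, on the opposite strand and at 0.05, covers 23.2% of it.

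Among the other processome genes, DDX52, a helicase, rose from 68.7, 67.0 and 76.2 CPM to 82.5, 93.1 and 93.9, a change of 0.35 ± 0.06 (adjusted p = 1.11e-04). RRP9, the protein of the U3 snoRNP that has an E-box shown above, was at 21.7, 21.4 and 23.9 CPM and then at 25.5, 25.9 and 26.6, and rose by 0.22 ± 0.07 (adjusted p = 0.0132). The groups of both genes did not overlap, though the call for RRP9 was lost without control replicate 1 (adjusted p = 0.0561), control replicate 2 (0.0727) or shtRF replicate 3 (0.0575). IMP4, a partner of the U3 snoRNA, fell by 0.19 (adjusted p = 0.0372) but was not called without control replicate 2, control replicate 3, shtRF replicate 2 or shtRF replicate 3 (0.0748 to 0.158).

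The processome gene with the highest level per kilobase was NOP14, at 90.1 RPKM. It was at 293, 292 and 325 CPM in control and at 301, 351 and 354 in shtRF, and its change of 0.14 ± 0.06 did not pass (adjusted p = 0.0795). It passed when control replicate 3 (0.20, adjusted p = 0.0193) or shtRF replicate 1 (0.21, adjusted p = 0.00854) was left out. An antisense gene, NOP14-AS1, covers 17.1% of its exons and was at 0.16. UTP20, NOC4L and RCL1 were between -0.12 and -0.03 on the log2 scale and did not pass. RCL1 had the lowest level of the 50 genes at 0.928 RPKM, and its 95% interval ran from -0.39 to 0.16.

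Late 40S assembly had 1 of its 4 genes lower and 2 higher, where 18.9% and 20.6% of all tested genes were lower and higher. The lower count lay near that background, and counts over 4 genes are too few to show a direction. The lower call was lost without control replicate 1, control replicate 3, shtRF replicate 2 or shtRF replicate 3, and 1 gene was higher without control replicate 1, control replicate 2 or shtRF replicate 2. RRP12 (chr10:97356358-97426076), needed for export of the subunit precursors, was at 104, 91.8 and 103 CPM in control and at 126, 131 and 133 in shtRF. Its groups were clearly separate, with a log2 fold change of 0.39 ± 0.06 (adjusted p = 1.02e-05). LTV1, which helps to place ribosomal proteins on the 40S head, was the most abundant of the 4 at 77.7 RPKM.

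LTV1 was at 125, 125 and 148 CPM and then at 147, 165 and 152, so the lowest shtRF library lay just under the highest control library. Its rise of 0.22 ± 0.06 (adjusted p = 0.00907) was lost without control replicate 1, control replicate 2 or shtRF replicate 2, with adjusted p-values of 0.0787, 0.0749 and 0.069. Other genes cover 34.8% of the exons of LTV1, mainly RP3-468K18.7 on the same strand, which was at -0.04. BYSL, or bystin, fell by 0.26 (adjusted p = 0.0204), a call lost without control replicate 1, control replicate 3, shtRF replicate 2 or shtRF replicate 3 (0.0588 to 0.112). TSR1, a GTPase-like factor, was at -0.07 (adjusted p = 0.385).

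The PeBoW complex, made of PES1, BOP1 and WDR12, is needed to mature the rRNA of the 60S subunit. PES1 (chr22:30576625-30607083), or pescadillo, was at 369, 349 and 390 CPM in control and at 270, 313 and 301 in shtRF, and WDR12 was at 26.5, 24.5 and 31.8 CPM and then at 19.9, 22.0 and 19.6. All shtRF libraries were lower for both genes. The changes were -0.33 ± 0.06 (adjusted p = 1.72e-04) and -0.43 ± 0.08 (adjusted p = 2.57e-04). BOP1, the subunit that joins them, did not follow. Its mean was 75.8 ± 5.23 CPM in control and 75.2 ± 1.46 in shtRF (SD, n = 3), a log2 fold change of -0.01 with a 95% interval from -0.13 to 0.11.

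Of the 17 genes of 60S assembly, 5 (29.4%) fell, 3 (17.6%) rose and 9 did not pass, where 18.9% and 20.6% of all tested genes were lower and higher. The median was -0.06. The balance turned without control replicate 3, to 3 lower and 5 higher with a median of 0.02. NOP16 had the largest fall of the 50 genes. It was at 18.2, 21.3 and 25.4 CPM in control and at 15.5, 16.8 and 15.4 in shtRF, and its log2 fold change was -0.45 ± 0.09 (adjusted p = 6.03e-04). The control libraries were spread over a wide range but stayed above those of shtRF. Other genes cover 20.0% of its exons, mainly ARL10 on the opposite strand, which was at -0.37. GNL3, which encodes nucleostemin and was the most abundant gene of this group at 55.4 RPKM, was at 192, 199 and 218 CPM and then at 160, 169 and 164, a change of -0.31 ± 0.06 (adjusted p = 1.40e-04).

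PPAN and NOC3L fell by 0.25 and 0.23, the latter not without control replicate 3 (adjusted p = 0.0614). Other genes cover 59.8% of the exons of PPAN, mainly the readthrough gene PPAN-P2RY11, which was at -0.25, so the value of PPAN is uncertain. BRIX1, a scaffold of early 60S particles, was at 41.8, 43.4 and 54.4 CPM in control and at 42.6, 41.1 and 37.2 in shtRF. Its groups overlapped, and control replicate 3 stood well above the other controls. The change of -0.21 ± 0.08 (adjusted p = 0.0424) became -0.08 without that library (adjusted p = 0.383) and was also lost without shtRF replicate 2 (0.0835) or 3 (0.232).

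GRWD1, NOP2 and RRS1 rose. GRWD1, a chaperone of a ribosomal protein, was at 118, 145 and 135 CPM in control and at 143, 192 and 183 in shtRF, with a log2 fold change of 0.38 ± 0.08 (adjusted p = 9.14e-04). Its lowest shtRF library was below its highest control library. NOP2 (chr12:6556863-6568691), an rRNA methyltransferase, was at 69.7, 65.4 and 77.0 CPM and then at 82.0, 82.9 and 89.9, and rose by 0.26 ± 0.06 (adjusted p = 0.00156) with no overlap between groups. RRS1, a partner of the 5S RNP, rose by 0.21 (adjusted p = 0.0263), a call lost without control replicate 1, control replicate 2, shtRF replicate 2 or shtRF replicate 3 (0.104 to 0.191). ADHFE1 covers 11.4% of its exons.

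The 9 genes of 60S assembly that did not pass lay between -0.17 for WDR74, which passed without control replicate 1 (-0.25, adjusted p = 0.0338), and 0.15 for GNL2. MRTO4, which holds a place for the ribosomal stalk, was just short of the threshold. It was at 40.7, 41.7 and 43.4 CPM in control and at 36.4, 38.7 and 38.7 in shtRF, a log2 fold change of -0.14 ± 0.06 (adjusted p = 0.051), and passed under several other settings. GNL2, a GTPase of 60S export, was at 219, 213 and 255 CPM and then at 236, 272 and 256. Its groups overlapped, and its change of 0.15 ± 0.07 (adjusted p = 0.0744) passed without control replicate 3 (0.24, adjusted p = 0.00356) or shtRF replicate 1 (0.20, adjusted p = 0.0342). DDX18 had all shtRF libraries above all control libraries, yet its 0.12 did not pass (adjusted p = 0.0955) except without control replicate 3 (0.18, adjusted p = 0.0124). NIP7, EBNA1BP2, NOC2L, URB2 and RRP1B lay between -0.07 and 0.01.

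POLDIP2, the gene outside ribosome assembly, was at 56.3, 55.7 and 52.9 CPM in control and at 50.9, 49.5 and 48.9 in shtRF. Its groups were close but did not overlap, and the log2 fold change of -0.14 ± 0.05 (adjusted p = 0.0434) was lost without control replicate 1, control replicate 2, shtRF replicate 2 or shtRF replicate 3 (0.0893 to 0.155). Without it, 21 of 49 genes (42.9%) were lower and 9 (18.4%) were higher, against 18.9% and 20.6% of all tested genes.

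Summed over the 50 genes, the level was 12110, 11890 and 13280 CPM in control and 10790, 12430 and 11740 CPM in shtRF. The groups overlapped. NCL took the largest share of these sums. Without it, a sum chosen after its values were seen, they were 7424, 7369 and 8172 CPM, and 6632, 7351 and 7068 CPM, which no longer overlapped by a narrow margin. Within the groups of genes, the sums did not overlap for box C/D snoRNPs, at 450 to 511 CPM in control and 383 to 430 in shtRF, or for PeBoW, at 444 to 499 and 364 to 411. Nor did they overlap for late 40S assembly, which was higher in shtRF, at 342 to 389.1 and 389.9 to 423 CPM. They did overlap for the processome, at 892 to 986 and 934 to 1023, and for H/ACA snoRNPs, the abundant proteins and 60S assembly.

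**Figure D3:**
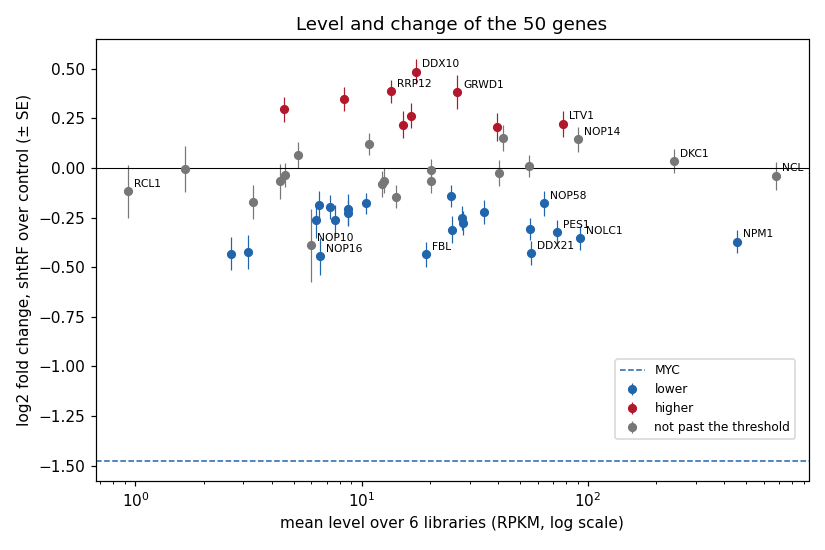
Mean level of the 50 genes over the 6 libraries (RPKM, log scale) against their log2 fold change in shtRF, with bars of 1 SE. Blue genes were lower and red genes higher with an adjusted p under 0.05, and the dashed line marks MYC at -1.48. Genes that fell and genes that rose are found from a few RPKM up to more than 50, while DKC1 and NCL, at 239 and 678 RPKM, lie close to 0.

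Of the 10 genes with the highest RPKM, 6 were lower and 1, LTV1, was higher, against 18.9% and 20.6% of all tested genes. The 2 at 0.03 and -0.04, DKC1 and NCL, were among these 10, with NPM1, at -0.37, between them in RPKM.

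A narrower question is whether those of the 50 genes that are textbook MYC targets moved more than the others. Of the 30 written down as such, among them NCL, NPM1, FBL, DKC1, NOP56, PES1 and BYSL, 15 were lower, 5 (16.7%) were higher and 10 did not pass, with a median of -0.18. Of the other 20 genes, 7 (35.0%) were lower and 4 (20.0%) were higher, with a median of -0.05. Over all tested genes 18.9% were lower and 20.6% higher, so the higher shares of both parts lay near that background. Whether these 2 parts of the list differ was not tested. Without control replicate 3, 12 of the 30 were lower and 6 higher, and of the 20 others 4 were lower and 6 higher, with a median of 0.02. Without shtRF replicate 3 the counts were 12 and 3 of the 30, and 3 and 4 of the 20. The higher count of the 30 was also 3 without control replicate 1 or control replicate 2. The list of 30 and the other lists were chosen with earlier results of these libraries known.

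**Figure D4:**
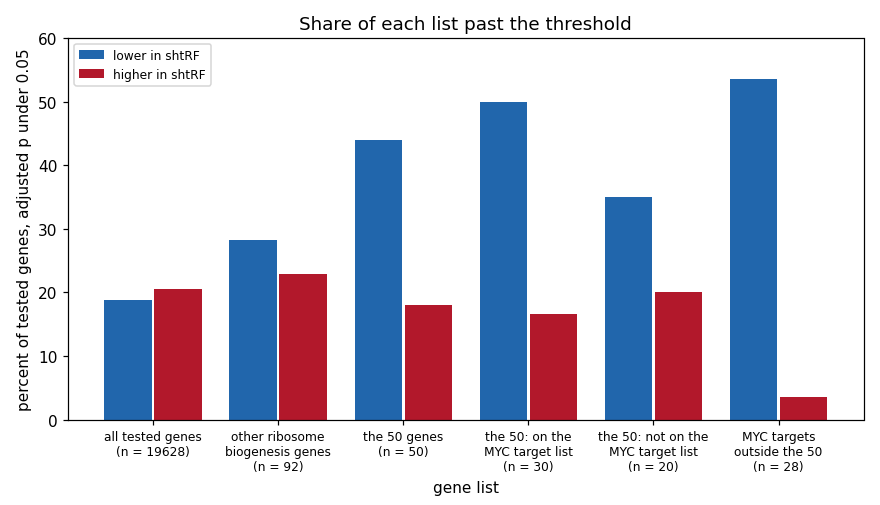
Share of each gene list that was lower (blue) or higher (red) in shtRF by edgeR with an adjusted p under 0.05, in percent of the tested genes of the list, with the number tested under each name. For the 50 genes 44.0% were lower and 18.0% higher, against 18.9% and 20.6% of all tested genes and 28.3% and 22.8% of other ribosome biogenesis genes.

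The rest of the pathway was examined with 92 further genes of rRNA processing and ribosome assembly, all of them tested. In that wider list 26 (28.3%) were lower and 21 (22.8%) were higher, with a median of -0.03, so that it lay closer to the background of all genes. The largest falls were those of NOP53 (listed as GLTSCR2), a 60S factor and regulator of p53, at -1.14 ± 0.06 (adjusted p = 2.00e-12), of the helicase DDX49 at -0.70 and of NLE1 at -0.69. The largest rises were those of the 60S export adaptor NMD3, at 0.68 ± 0.05 (adjusted p = 1.68e-09), of the processome subunit DCAF13 at 0.54 and of NOL7 at 0.44. NOP53 was the only one of the 92 with an estimate beyond a halving. RANBP9, on the opposite strand and at 0.33, covers 18.6% of the exons of NOL7, and FNDC8 covers 12.6% of those of NLE1.

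Of 30 textbook MYC targets on neither of these lists, 28 were tested. Of the 28, 15 (53.6%) were lower and 1 was higher, with a median of -0.19. Over all tested genes 18.9% were lower and 20.6% higher, with a median of -0.0025. LDHA, lactate dehydrogenase A, fell most at -1.13, followed by the folate carrier SLC19A1 at -0.79 and the chaperonin HSPD1 at -0.58. SLC19A1 was low, at 0.49 RPKM. COL18A1, on the opposite strand and at -1.4, covers 14.0% of its exons, so its value is uncertain. The single rise was that of the transferrin receptor TFRC, at 1.35. LDHA thus fell by more than any of the 50 nucleolar genes, and its 95% interval (-1.24 to -1.02) lies below all of theirs.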

How the data were processed

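The authors deposited raw read counts per gene for 6 mRNA libraries, with exon coordinates, strand and exonic length. The submitters' processing notes name Trimmomatic 0.36, featureCounts, Subread 1.5.1, edgeR 3.12.1 and GRCh38. The aligner, the annotation release and the treatment of reads in overlapping genes are not given in the sources used here. All 50 genes overlapped their GENCODE release 29 locus. Among counts of 1 to 4, 74.2% to 77.1% per library were even, as when both mates of a pair are counted, so the number of fragments may be smaller than the count. A deposited RPKM table, of which 4997 genes were used, equalled count, length and total recombined for 100% of the values of the 4991 genes matched (relative tolerance 1e-06), so RPKM was recomputed for every gene.

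Counts were tested over all 6 libraries with edgeR 4.0.16 (R 4.3.3): filterByExpr (minimum count 10), TMM scaling (factors 0.961 to 1.03) and the quasi-likelihood test with group as the only term, with Benjamini-Hochberg adjustment over 19628 genes. The biological coefficient of variation was 7.56%. SE is the log2 fold change over the square root of F, and 95% intervals use the t distribution with the fit's degrees of freedom, without adjustment. Exon overlap was taken from the deposited coordinates irrespective of strand. No list was tested as a set. The fits were also run on simulated data that lacked the joint shift of control replicate 3, and no result here rests on that run.

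Values in every library are given for MYC, NCL, NPM1, FBL, DKC1, POLDIP2, the 8 lowest and 8 highest log2 fold changes of the 50, the gene of highest RPKM in each role and the 2 nearest to the threshold on each side. Of the other lists, the 3 lowest and 3 highest past the threshold are named. The members and lists were chosen with earlier results of these data known. Alternatives were RLE and upper quartile scaling, other filters, DESeq2 1.42.0, limma-trend (limma 3.58.1) on log2(RPKM + 1) and log2(RPKM + 0.1), a replicate block, genes with under 10% exon overlap, halved counts and leaving out each library.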

Additional observations from a re-analysis of the deposited data

How the results depend on the processing

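The counts of lower and higher genes among the 50, their median, the lower counts among the 30 MYC targets and the 92 other ribosome biogenesis genes, and the fall in MYC kept direction and lay within the limits set (1.5 times for counts, 0.054 for the median, the threshold for MYC) in each of the 16 alternatives that tested them. The limit for the median was its SD between libraries of a group in these same data. The limit for counts still held with 15 of the 22 lower or 6 of the 9 higher genes. Leaving out 1 library gave 15 to 22 lower genes, 6 to 12 higher genes and medians of -0.14 to -0.09. The shares of all tested genes called in those fits are not given here. The fewest lower genes, 15, came without shtRF replicate 3, and the most higher genes, 12, without control replicate 3. In the 15 alternatives that tested all 50 genes, 13 of the 22 lower and 5 of the 9 higher genes held their call, and no called gene was called in the other direction. Both limma-trend fits gave 6 higher genes. Of 711 values of 45 other named genes, 646 kept direction and call, 40 lost the call, 18 gained it and 7 changed sign, all of the last in DKC1 and NCL, which are close to 0. DKC1 was at -0.0025 under upper quartile scaling, -0.018 on log2(RPKM + 1), -0.019 on log2(RPKM + 0.1), and from -0.0128 (without shtRF replicate 2) to 0.0919 (without control replicate 3) when 1 library was left out, with -0.0025 without control replicate 1. NCL ran from -0.1089 (without shtRF replicate 2) to 0.024 (without shtRF replicate 1), with 0.0117 without control replicate 3. The cause was not tested.

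Replicate numbers did not pair the libraries: the correlation of the deviations of control and shtRF libraries that carry number 1, 2 or 3 was 0.0185, -0.0029 and 0.0045. In the fit with a replicate block 24 genes were lower and 10 were higher, with a median of -0.13. The median of all tested genes ran from -0.05 to -0.0017 over the alternatives.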

Other observations

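The MYC network itself moved in both directions. Of its 13 genes 12 were tested. With an edgeR adjusted p under 0.05, 5 (41.7%) were lower, MYC among them, and 5 (41.7%) were higher. Over all tested genes those shares were 18.9% and 20.6%. MYCN, a paralogue of MYC that was low in these cells at 1.54 ± 0.154 CPM in control and 0.588 ± 0.194 in shtRF (SD, n = 3), changed by -1.39 ± 0.26 (SE; adjusted p = 2.17e-04). MNT, MGA and MXD3, which bind MAX or E-boxes in place of MYC, fell by 0.39, 0.18 and 0.17. MAX, the partner that MYC needs to bind DNA, rose from 49.3 ± 4.16 to 67.3 ± 1.80 CPM, a log2 fold change of 0.45 (adjusted p = 4.17e-06). MXI1 and MXD1, repressors that compete with MYC for MAX, rose by 0.80 and 0.25, and MLX and MLXIP, of the related glucose-sensing branch, by 0.21 and 0.82. Other genes cover 40.4% of the exons of MXD3, mainly PRELID1 on the opposite strand, which was at -0.21. Opposite-strand genes also cover 12.2% of MNT (RP1-59D14.1, at -0.29) and 18.1% of MLX (PSMC3IP, at 0.30).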
